A study of Mus musculus with 12 samples.

Results

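Expression of 10 genes of the NF-kB system was compared between the brain's covering membranes, the meninges, in mice with and without chemically induced colitis. The genes are 4 subunit genes (Nfkb1, Nfkb2, Rel and Relb), 5 genes of feedback and cofactor proteins (Nfkbia, Nfkbiz, Bcl3, Tnfaip3 and Birc3) and the cytokine gene Tnf. They were taken by symbol from the 47747 symbols of the raw count table, all 10 were found, and all 10 were among the 18593 genes that passed the filter on low counts. The rule goes by name and uses no measured value, but the members were chosen with earlier results of these data known. The study used 12 mice of the C57bl/6 strain. In 6 of them the drinking water held 2% DSS, dextran sulfate sodium, which damages the lining of the colon, for 5 days and was then plain; the other 6 were labelled Control. The mice were killed after 6 days, counted from a day that the labels do not name, and neither age nor sex is given. Each mouse gave 1 library of total RNA, and the spread reported below is therefore between mice.

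NF-kB is a family of dimeric transcription factors that switch on genes of inflammation, cell survival and leukocyte recruitment. In resting cells the dimers are held in the cytoplasm by inhibitor proteins, and signals from receptors for cytokines and microbial products lead to the destruction of those inhibitors. Several genes that NF-kB switches on encode its own restraints, among them the inhibitor IkB-alpha (Nfkbia) and the ubiquitin-editing enzyme encoded by Tnfaip3, so that transcripts of these feedback genes are commonly read as a trace of recent signalling. Nfkbiz and Bcl3 encode atypical IkB proteins that work in the nucleus, where they bind subunit dimers and alter which genes are switched on.

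The start regions of these genes are shown first, because several members are textbook targets of the factor they regulate. RefSeq promoter windows on GRCm38.p6, from 250 bases before to 50 bases after the start, matched 7 of the 10 members by symbol (Nfkb2, Rel, Nfkbia, Bcl3, Tnfaip3, Birc3 and Tnf) with 10 windows in all. Each window was searched on both strands for the kappaB consensus, the 10-base pattern of NF-kB binding sites, and overlapping matches were joined to 1 stretch. The windows shown are those of Nfkbia, the textbook feedback inhibitor, and of Rel, Bcl3 and Tnf, which had the largest fold changes among members with a window. They lie at chr12:55492598-55492897, chr11:23770920-23771219, chr7:19822706-19823005 and chr17:35201958-35202257, all on the minus strand. Each is written 5′ to 3′ with matches to the kappaB consensus on either strand in capitals.
Nfkbia: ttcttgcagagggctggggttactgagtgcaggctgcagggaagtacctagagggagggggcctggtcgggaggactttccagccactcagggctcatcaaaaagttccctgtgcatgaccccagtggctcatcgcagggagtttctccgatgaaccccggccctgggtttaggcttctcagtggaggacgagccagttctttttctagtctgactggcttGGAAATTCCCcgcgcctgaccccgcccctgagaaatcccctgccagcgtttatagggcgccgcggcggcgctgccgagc
Rel: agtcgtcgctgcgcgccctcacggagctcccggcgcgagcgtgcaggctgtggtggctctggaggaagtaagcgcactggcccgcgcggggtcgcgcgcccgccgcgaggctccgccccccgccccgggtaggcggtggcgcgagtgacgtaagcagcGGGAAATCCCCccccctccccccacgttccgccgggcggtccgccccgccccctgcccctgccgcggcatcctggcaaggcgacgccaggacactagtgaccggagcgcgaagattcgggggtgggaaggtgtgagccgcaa
Bcl3: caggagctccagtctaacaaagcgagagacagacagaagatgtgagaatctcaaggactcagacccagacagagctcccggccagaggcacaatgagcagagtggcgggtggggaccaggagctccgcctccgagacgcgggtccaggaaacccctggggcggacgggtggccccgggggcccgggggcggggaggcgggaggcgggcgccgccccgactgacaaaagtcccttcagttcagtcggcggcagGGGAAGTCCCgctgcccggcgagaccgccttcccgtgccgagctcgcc
Tnf: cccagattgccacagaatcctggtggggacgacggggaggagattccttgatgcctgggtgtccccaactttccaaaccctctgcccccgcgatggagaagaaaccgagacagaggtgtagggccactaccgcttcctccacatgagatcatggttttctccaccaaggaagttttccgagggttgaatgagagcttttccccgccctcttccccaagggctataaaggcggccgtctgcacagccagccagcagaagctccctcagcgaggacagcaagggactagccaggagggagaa
The stretch in Nfkbia begins 29 bases before the start, that in Rel 92 bases before it, and that in Bcl3 at base 3 of the transcript. The first window of Nfkb2 (chr19:46304487-46304786, plus strand) held 2 stretches, GGGAATTCCCC from 39 bases and GGGGCTTTCC from 11 bases before the start. The first window of Tnfaip3 held 2 as well. No match lay in these windows of Birc3 or Tnf, which says only that these letters are not there. In all, 7 of the 10 windows, belonging to 5 of 7 members, held a match, against 4.51% of the 32851 windows of the RefSeq table. A match is a description of sequence and not a measured site.

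The libraries held 9312788 to 41869997 counts, with no difference between groups beyond the spread between mice (means of 25904700 in controls and 22562800 in DSS mice; exact two-sided permutation test, p = 0.537). Titles and extraction protocol name meninges and the source label names colon. Dcn, the decorin gene of fibroblasts, lay between 604 and 951 CPM, the counts relative to the scaled library size, in every mouse. Bglap, a bone gene, lay between 301 and 847 CPM in controls and between 167 and 808 in DSS mice. Cdx2, a defining colon gene, had 0 counts in every library. Of 13 listed colon genes 5 passed the filter on low counts. Among them were Krt8 (5.45 to 16.4 CPM in controls, 5.62 to 13.5 in DSS mice) and Lgals4 (2.71 to 4.11 and 3.99 to 6.24). A list of 22 neutrophil genes had a mean log2 CPM of 1.25 to 2.22 in controls and 2.68 to 4.76 in DSS mice, and 20 of its 21 tested members rose; DSS replicate 3 held the lowest DSS value and the other DSS mice began at 4.52. A list of 11 monocyte genes lay between 3.66 and 3.99 in controls and between 4.26 and 5.19 in DSS mice, and 14 macrophage genes between 5.39 and 5.71 and between 5.29 and 6.44. DSS replicate 2 had a skeletal muscle list level of 3.41, against -1.22 to 0.79 in the other libraries, and Control replicate 2 had 32.3% of its counts in Rn18s-rs5, an 18S ribosomal RNA feature, against 0.0261% to 5.05% elsewhere.

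Of the 10 members, 1 rose in DSS mice and 0 fell. The risen gene was Nfkbiz, at 1.55-fold. Calls were made by edgeR's quasi-likelihood test at a Benjamini-Hochberg adjusted p under 0.05. Of all tested genes, 4.94% changed, 3.68% rose and 1.26% fell. As the members were chosen with earlier results known, the shares set beside them here only describe these 10 genes. No member had an unadjusted p under 0.05 with a lower level in DSS mice (0 of 10), and DESeq2 and limma-voom gave 0 fallen members. The fitted log2 fold change was above 0 in 10 of 10 members, as in 45.3% of all tested genes, and the median was 0.26, against -0.02 over all tested genes. An unadjusted p under 0.05 with a higher level in DSS mice was found for 5 members (Nfkbiz, Tnf, Bcl3, Rel and Nfkb2) and for 9.77% of all tested genes; in either direction the share was 19.0%. The libraries are of whole tissue, so a difference in the number of cells of a type and a difference in RNA per cell cannot be told apart, here and in all results that follow.

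**Figure D1:**
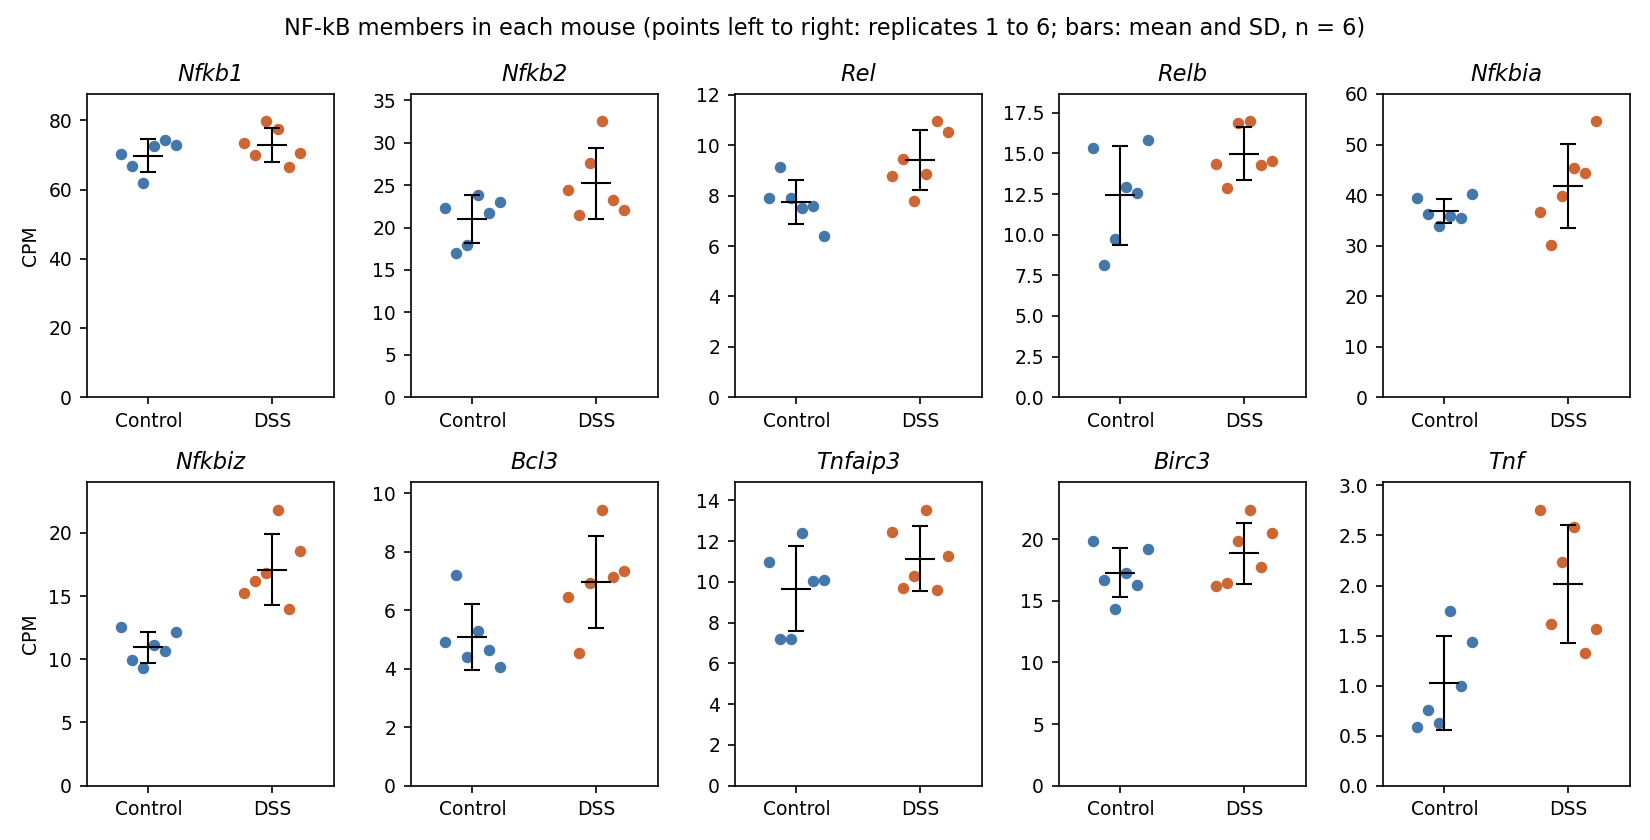
CPM of each member (vertical axis, starting at 0) in the 6 Control and 6 DSS mice (horizontal axis); points are single mice and bars the mean and SD. Nfkbiz is the only one of the 10 panels in which the lowest DSS mouse (13.9 CPM) lies above the highest control (12.5 CPM).

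Nfkbiz lies on chromosome 16 from 55811375 to 55838899 (GENCODE M21, GRCm38; counts are over the whole gene in this and all other members). Its product is required for the induction of a subset of secondary NF-kB targets in myeloid and epithelial cells, among them Lcn2. In controls it measured 9.35 CPM at the lowest, 10.9 at the median and 12.5 at the highest. In DSS mice the lowest, median and highest values were 13.9, 16.5 and 21.8 CPM. The groups did not overlap, a separation in this direction shown by 1 of the 10 members and 2.23% of all tested genes. The mean went from 11.0 ± 1.22 to 17.1 ± 2.79 CPM (SD, n = 6), with a log2 fold change of 0.63 ± 0.11 SE (95% interval 0.39 to 0.87, edgeR adjusted p = 0.00442). DSS replicate 4 was the highest of all mice and Control replicate 3 the lowest.

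Nfkbiz is set here beside the cell type lists in single mice. DSS replicate 3, with the lowest neutrophil list level of the DSS mice, had 16.8 CPM of Nfkbiz, the third highest of its group and above the 12.5 CPM of the highest control. Without that mouse the log2 fold change was 0.64 (edgeR adjusted p = 0.00737; 1e-05 to 0.0156 over all 20 alternative settings). In DSS replicate 2, with the raised muscle list, Nfkbiz measured 16.2 CPM. The neutrophil and monocyte lists lay above every control in all 6 DSS mice and the macrophage list in 5 of 6, all but DSS replicate 2. A list of 10 bone genes lay below every control in all 6 DSS mice (6.06 to 6.51 in controls, 4.86 to 6.05 in DSS mice). Of its 10 genes 3 fell, against 1.26% of all tested genes. The part of these lists in the rise of Nfkbiz was not tested.

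**Figure D2:**
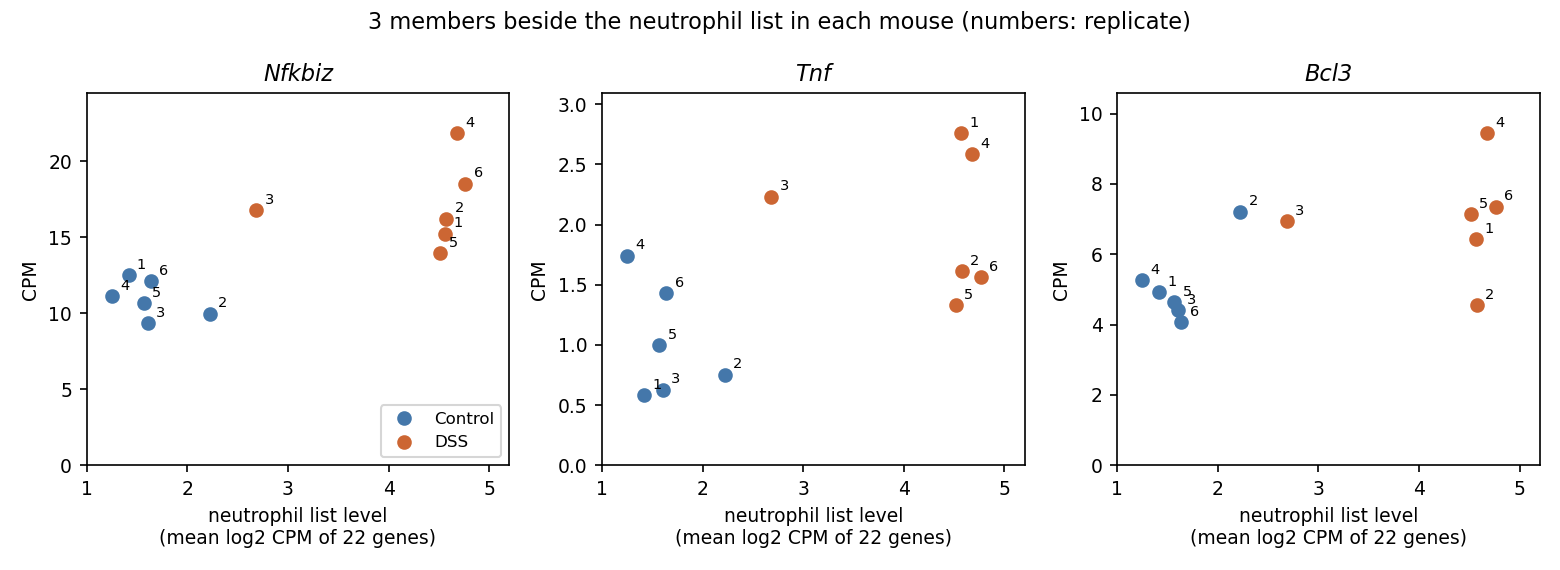
CPM of Nfkbiz, Tnf and Bcl3 (vertical axes, starting at 0) against the mean log2 CPM of 22 neutrophil genes (horizontal axis), 1 point a mouse with its replicate number. DSS replicate 3 has a neutrophil level of 2.68 and 16.8 CPM of Nfkbiz, and the other 5 DSS mice lie at neutrophil levels of 4.52 or more.

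No other gene of the feedback and cofactor class passed the test. Nfkbia (chromosome 12 from 55489410 to 55492647) encodes the inhibitor that holds NF-kB dimers in the cytoplasm. It measured 33.8 CPM at the lowest, 36.1 at the median and 40.2 at the highest in controls. In DSS mice these values were 30.2, 42.0 and 54.6 CPM. The groups overlapped: DSS replicate 2 was the lowest of all mice and DSS replicate 6 the highest, and the log2 SD was 0.0952 in controls and 0.292 in DSS mice. The log2 fold change was 0.18 ± 0.11 SE (95% interval -0.06 to 0.43, edgeR adjusted p = 0.425). Without DSS replicate 2 it was 0.27 (edgeR adjusted p = 0.0973) and without DSS replicate 6 it was 0.09 (adjusted p = 0.735). These were the lowest and highest adjusted p over the alternatives. DSS replicates 5 and 6 (44.3 and 54.6 CPM of Nfkbia) also had the highest levels of a list of 10 glucocorticoid response genes, at 5.07 and 5.17 mean log2 CPM against 4.32 to 4.79 in the other libraries, and DSS replicate 2 the lowest at 4.32. DSS replicate 4 had 45.3 CPM of Nfkbia with a list level of 4.64, inside the control range. The part of this list in the Nfkbia spread was not tested.

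Bcl3 (chromosome 7 from 19808462 to 19822770) encodes a nuclear protein that partners homodimers of the Nfkb1 and Nfkb2 products. In controls the lowest, median and highest values were 4.06, 4.78 and 7.21 CPM. In DSS mice they were 4.55, 7.04 and 9.44 CPM. Control replicate 2 alone stood at 7.21 CPM, above 4 of the 6 DSS mice, and DSS replicate 2 alone stood below 6 CPM in its group. The log2 fold change was 0.47 ± 0.17 SE (95% interval 0.10 to 0.84) and did not pass the test (edgeR adjusted p = 0.137; 0.00819 to 0.300 over the alternatives). It passed with limma-voom (0.53, adjusted p = 0.0420), without DSS replicate 2 (0.57, adjusted p = 0.0380) and with both replicates numbered 2 left out (0.69, adjusted p = 0.00819). Bcl3 exons overlap Gm16175 on the other strand by 600 bases, and that gene had 0 or 1 counts in every library.

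Tnfaip3 (chromosome 10 from 19000910 to 19015657) encodes an enzyme that removes and adds ubiquitin on signalling proteins and so ends the response. It ranged from 7.19 to 12.4 CPM in controls, with a median of 10.1, and from 9.59 to 13.5 CPM in DSS mice, with a median of 10.8. Birc3 (chromosome 9 from 7848699 to 7873186) encodes a ubiquitin ligase of the receptor complexes for tumour necrosis factor. It ranged from 14.4 to 19.9 CPM in controls, with a median of 17.0, and from 16.2 to 22.4 CPM in DSS mice, with a median of 18.8. In both genes 2 of 6 DSS mice lay above the highest control. The log2 fold change was 0.19 ± 0.14 SE for Tnfaip3 (95% interval -0.11 to 0.49) and 0.12 ± 0.10 SE for Birc3 (-0.09 to 0.33). Neither passed edgeR's test (adjusted p = 0.510 and 0.574).

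Tnf had the largest fold change of the members and the lowest level. It lies on chromosome 17 from 35199381 to 35202007 and encodes tumour necrosis factor, a cytokine that both activates NF-kB and is made under its control. In controls the lowest, median and highest values were 0.582, 0.877 and 1.74 CPM. In DSS mice they were 1.33, 1.92 and 2.76 CPM. All 6 DSS mice lay above the control median and 3 of them above Control replicate 4, the highest control. The mean went from 1.02 ± 0.470 to 2.01 ± 0.593 CPM (SD, n = 6), a fold of 1.94 with a 95% interval of 1.25 to 3.02. This did not pass edgeR's test (adjusted p = 0.0804; 0.0277 to 0.179 over the alternatives). Without Control replicate 4 the log2 fold change went from 0.96 to 1.18 with an adjusted p of 0.0376, and DESeq2's Wald test gave an adjusted p of 0.0277.

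Tnf rests on few reads. Its counts ran from 7 to 69 per library, and the 7 counts of Control replicate 3 have an exact Poisson interval of 2.81 to 14.4 (95%, counting error only). DSS replicate 3, whose neutrophil list level of 2.68 was the lowest of the DSS mice and above every control, had 2.23 CPM of Tnf, the third highest of its group. The part of neutrophil genes in the Tnf values was not tested. The highest values of Tnf were in DSS replicates 1 and 4.

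The subunit genes differed by small factors. Nfkb1 (chromosome 3 from 135584655 to 135691547) encodes the precursor of a DNA-binding subunit that is present in most resting cells. It lay between 61.8 and 74.4 CPM in controls, with a median of 71.4, and between 66.5 and 79.8 CPM in DSS mice, with a median of 72.0. The ranges overlapped almost throughout, with a log2 fold change of 0.06 ± 0.06 SE and a 95% interval of -0.07 to 0.20 (edgeR adjusted p = 0.672). A fold above 1.15 lies outside that interval.

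Rel and Nfkb2 were higher in DSS mice without passing the test. Rel (chromosome 11 from 23736847 to 23770970) encodes c-Rel, a subunit of lymphoid and myeloid cells. Its lowest, median and highest values were 6.41, 7.74 and 9.14 CPM in controls and 7.78, 9.17 and 11.0 CPM in DSS mice. All 6 DSS mice lay above the control median and 3 above the highest control. The log2 fold change was 0.29 ± 0.11 SE (95% interval 0.06 to 0.52, edgeR adjusted p = 0.152). Nfkb2 (chromosome 19 from 46304320 to 46312385), the precursor gene of the non-canonical branch, measured 17.0, 22.02 and 23.9 CPM in controls and 21.4, 23.8 and 32.5 CPM in DSS mice, and 3 DSS mice lay above the highest control. Its log2 fold change was 0.26 ± 0.11 SE (95% interval 0.02 to 0.51, edgeR adjusted p = 0.228). Nfkb2 exons share 299 bases with Psd on the other strand, which had 97 to 341 counts in controls and 144 to 285 in DSS mice, and whether reads were assigned by strand is not given in the sources used here.

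Relb (chromosome 7 from 19606217 to 19629438) encodes the partner of the Nfkb2 product in the non-canonical branch. It spread widely among controls, from 8.13 to 15.8 CPM with a median of 12.8, and less among DSS mice, from 12.8 to 17.0 CPM with a median of 14.4. All 6 DSS mice lay above the control median and 2 above the highest control. The log2 fold change was 0.26 ± 0.14 SE (95% interval -0.05 to 0.56, edgeR adjusted p = 0.367).

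**Figure D3:**
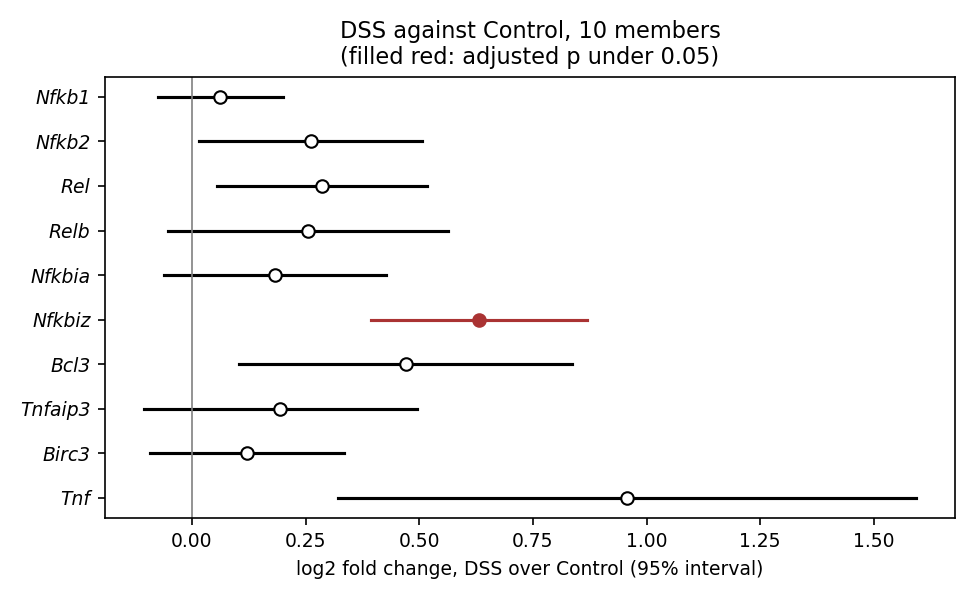
Log2 fold change, DSS over Control, of the 10 members (horizontal axis) with the 95% interval of the edgeR fit; the filled red point passed the test. The interval of Nfkbiz runs from 0.39 to 0.87, that of Nfkb1 from -0.07 to 0.20 and that of Tnf from 0.32 to 1.59.

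Whether Nfkbiz differed from the other members was tested on its log2 ratio to each of them within each library, 9 ratios chosen after the values were seen. The exact two-sided permutation test over the 12 mice cannot go below p = 0.00216, and p-values were adjusted over the 9 ratios. The ratio to Nfkb1 was higher by 0.57 in DSS mice on the log2 scale, to Birc3 by 0.51 and to Nfkb2 by 0.37. In each of these 3 all 6 DSS mice lay above the highest control (exact permutation, adjusted p = 0.00649 each). The ratio to Nfkbia was higher by 0.47 (5 of 6 mice above the highest control, exact permutation, adjusted p = 0.00974), to Tnfaip3 by 0.41 (5 of 6, adjusted p = 0.0156) and to Relb by 0.33 (3 of 6, adjusted p = 0.0390). No difference passed for the ratios to Rel (0.35, 2 of 6, exact permutation, adjusted p = 0.1), Bcl3 (0.19, 1 of 6, adjusted p = 0.366) and Tnf (-0.35, 0 of 6, adjusted p = 0.265). Nfkbiz was the only member called in these same libraries, and all 9 ratios share it. The p-values therefore describe these ratios and are not separate support for its rise. The change of Nfkbiz could not be told from those of Rel, Bcl3 and Tnf.

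Among DSS mice the members did not share 1 order. DSS replicate 4 had the highest value of its group in 6 of the 10 members: Nfkb2, Relb, Nfkbiz, Bcl3, Tnfaip3 and Birc3. DSS replicates 2 and 5 had the lowest in 4 members each. DSS replicate 4 also had the highest macrophage list level of all mice (6.44), and DSS replicate 2 the raised muscle list; their part in these orders was not tested. Leaving out DSS replicate 4 took the log2 fold change of Nfkbiz to 0.55, the lowest of its 20 alternative values, with an edgeR adjusted p of 0.00874.

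**Figure D4:**
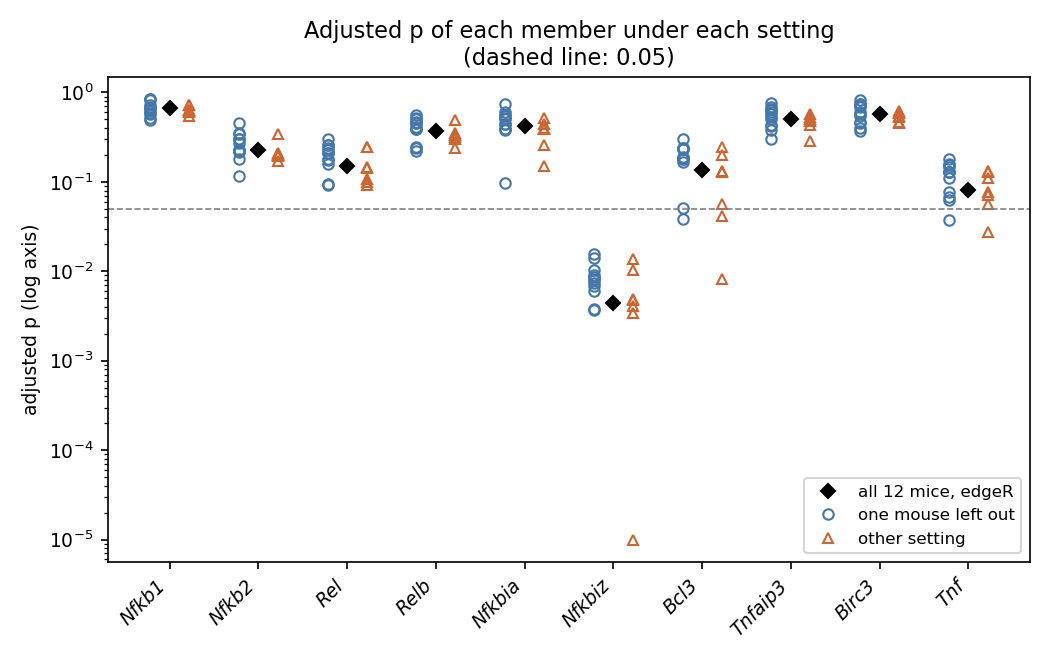
Adjusted p (vertical log axis) of each member in the edgeR fit of all 12 mice (diamonds), with 1 mouse left out (circles) and under the other settings (triangles); the dashed line marks 0.05. Nfkbiz lies under the line throughout (highest 0.0156), Bcl3 and Tnf cross it under some settings, and the other 7 members stay above it.

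Levels of different genes were compared per length, as CPM per kilobase of merged exons. The lengths are those of GENCODE M21. The annotation used for the counts is not given, so lengths and counted exons may not match. In controls Nfkbia was the most abundant, at 22.9 ± 1.52 CPM per kilobase (SD, n = 6), and its range did not overlap that of the next gene. Nfkb1 followed at 5.79 ± 0.389 and Nfkb2 at 4.58 ± 0.611 CPM per kilobase. Birc3 and Relb lay at 3.45 ± 0.404 and 3.20 ± 0.781, Nfkbiz and Bcl3 at 2.19 ± 0.244 and 2.05 ± 0.453, Tnfaip3 at 1.34 ± 0.288, Rel at 1.04 ± 0.118 and Tnf at 0.624 ± 0.287 CPM per kilobase. From Nfkb1 downward each gene's control range overlapped that of the next. The order in DSS mice was the same except that Relb (3.86) stood before Birc3 (3.77). Nfkbiz held rank 6 in both groups, at 3.41 ± 0.555 CPM per kilobase in DSS mice.

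The genes whose pattern over the 12 libraries was most like that of Nfkbiz were Sh2b2, Hmha1 and Lrmp. Likeness was the root mean square difference of log2 CPM, each gene centred on its own mean. It was taken over 12936 genes whose log2 CPM averaged 1 or more. Members and genes with predicted (Gm), Rik or accession-style names were left out of these. The median likeness over those genes was 0.409. Sh2b2, an adaptor gene of receptor signalling, differed from Nfkbiz by 0.0825. Hmha1 differed by 0.115 and Lrmp, a membrane protein gene of lymphoid cells, by 0.121. Sh2b2 lay between 1.98 and 2.80 CPM in controls and between 2.87 and 5.17 CPM in DSS mice. Hmha1 lay between 26.4 and 36.4 CPM in controls and between 44.6 and 55.9 CPM in DSS mice. Both genes were picked for likeness to Nfkbiz over these same libraries, so a like difference between groups follows from that choice.

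Other genes of the pathway were counted by role, and each share is set beside the 3.68% of all tested genes that rose. The lists are not separate. Il1b and Ltb are in both the ligand and the target list, and Traf1 in both the adaptor and the target list. Upstream, 2 of 6 tested ligand genes rose (33.3%, against 3.68%) and 0 fell (median log2 fold change 0.41). Il1b, the gene of interleukin-1 beta, lay between 1.02 and 2.43 CPM in controls and between 4.04 and 5.92 in DSS mice (log2 fold change 1.54 ± 0.19 SE, edgeR adjusted p = 0.000531). Tnfsf14, the gene of the cytokine LIGHT, went from 0.689 ± 0.209 to 1.29 ± 0.297 CPM (SD, n = 6; adjusted p = 0.0439), a call that held when Control replicate 4 or DSS replicate 2 was omitted and was lost on omitting any of the other 10 mice. Of the 9 listed ligands, Il1a, Lta and Cd40lg did not pass the filter, with at most 15 counts in any library.

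Of 10 tested receptor genes 2 rose (20%, against 3.68% of all tested genes; median 0.11). Tnfrsf1b, a receptor gene for tumour necrosis factor found mainly on leukocytes and endothelium, averaged 54.0 ± 8.57 CPM in DSS mice against 34.1 ± 4.02 (SD, n = 6) in controls. It rose 1.59-fold (edgeR adjusted p = 0.00313), and 5 of 6 DSS mice exceeded every control. Tnfrsf14, a receptor gene for LIGHT, went from 8.07 ± 1.29 to 11.3 ± 1.48 CPM (adjusted p = 0.0326). Omitting Control replicate 2, 3, 4 or 6 or DSS replicate 1, 3, 4 or 6 ended that call and left 1 risen receptor gene. Without DSS replicate 2, 4 receptor genes rose.

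Of 28 adaptor and kinase genes 1 rose and 27 did not pass (median 0.04), and this 3.57% is near the 3.68% of all tested genes. The risen gene was Irak4, a kinase gene of interleukin-1 and Toll-like receptor signalling, which lay between 7.46 and 9.29 CPM in controls and between 10.5 and 12.8 in DSS mice (log2 fold change 0.43 ± 0.09 SE, edgeR adjusted p = 0.0116). The number risen was 2 without Control replicate 2 and 3 without DSS replicate 2. Of 16 further inhibitor genes 2 rose (12.5%, against 3.68% of all tested genes; median 0.09). Tnfaip8l2, an inhibitor gene of innate immune signalling, averaged 11.2 ± 2.08 CPM in DSS mice against 6.30 ± 1.18 (SD, n = 6) in controls and rose 1.78-fold (edgeR adjusted p = 0.00454). Nlrc5, an interferon-inducible regulator gene also known for switching on MHC class I genes, rose 1.73-fold (adjusted p = 0.0261), a call that ended on omitting any one of Control replicates 5 and 6 and DSS replicates 1, 4 and 6.

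Of 42 listed target genes 31 were tested, of which 9 rose (29.0%, against 3.68% of all tested genes), 0 fell (against 1.26%) and 22 did not pass; the median over the 31 was 0.52 on the log2 scale. The number risen was 6 to 12 with single mice left out, 12 of them without DSS replicate 2. The risen genes with the smallest p were Lcn2, Il1b, Clec4e and Il1rn. Lcn2, the lipocalin 2 gene, is also one of the 22 neutrophil genes and rose 13.7-fold (edgeR adjusted p = 0.000199). Clec4e, a lectin receptor gene of myeloid cells, lay between 0.120 and 0.345 CPM in controls and between 0.399 and 3.36 CPM in DSS mice. Il1rn, whose product blocks the interleukin-1 receptor, had a mean of 0.576 ± 0.301 CPM in controls against 1.79 ± 0.337 in DSS mice (SD, n = 6). It passed the test (edgeR adjusted p = 0.00541). All 6 DSS mice lay above the highest control, as in 2.23% of all tested genes. The filter removed 11 target genes, among them Il6, with at most 11 counts in any library, and Cxcl1, with 2 to 13 counts in controls and 2 to 58 in DSS mice. Targets were counted from a list chosen with earlier results of these mice known, so the count describes the list and sets it apart from nothing.

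**Figure D5:**
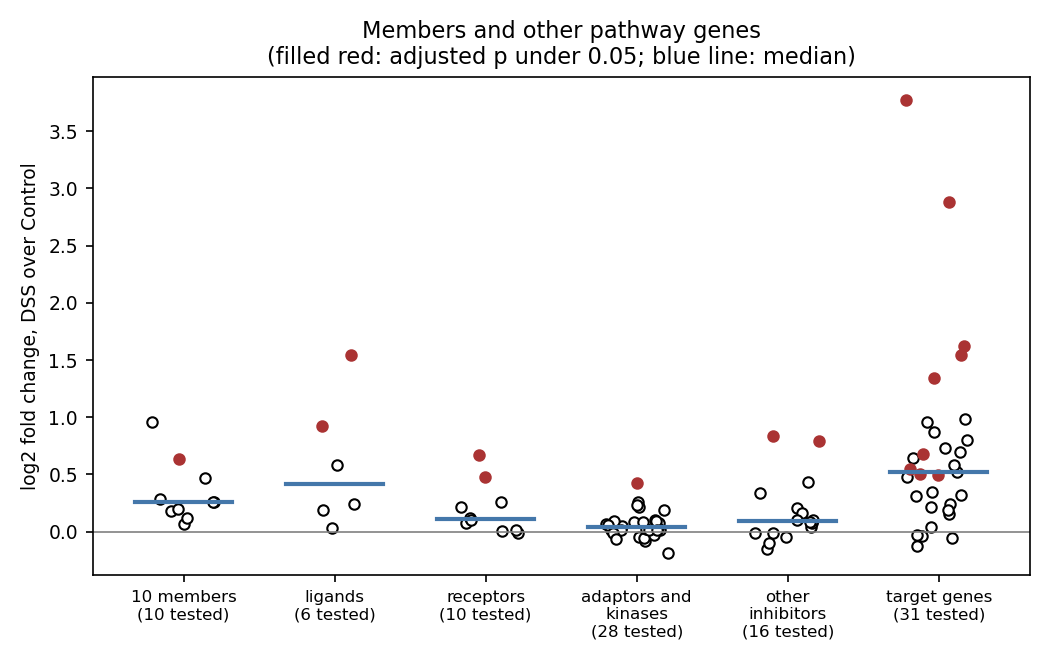
Log2 fold change, DSS over Control (vertical axis), of the tested genes in each list; each point is a gene, filled red where it passed the test, and the blue line is the list's median. The medians are 0.26 for the members, 0.41 for ligands, 0.11 for receptors, 0.04 for adaptors and kinases, 0.09 for other inhibitors and 0.52 for target genes.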

How the data were processed

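Total RNA from the meninges of 12 mice was sequenced from stranded libraries, per the labels' protocols. The authors deposited a table of raw counts per gene symbol with 1 column per mouse, matched to mice by its heading; columns of no sample numbered 0. The submitters' processing notes name HISAT2, featureCounts, Trim Galore, CASAVA and FastQC, and the build mm10. For versions, annotation and strand setting: not given in the sources used here. A second deposited table of normalized values was not used.

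The members and gene lists were chosen with earlier results of these data known. Genes were tested with edgeR 4.0.16 in R 4.3.3: filterByExpr (minimum count 10, minimum total 15), TMM normalization, and its quasi-likelihood test with treatment as the only term, called at a Benjamini-Hochberg adjusted p under 0.05 over all 18593 tested genes. The SE was derived as |log2 fold change| divided by the root of the F statistic. TMM library sizes scaled the CPM, and logged CPM had a prior count of 2. Named genes are all members, up to 4 called genes of smallest p per pathway list, and the 3 genes most like each called member. The steps were also run on simulated counts with planted changes, and how many of those were recovered is not reported here. The alternatives comprised limma-voom (limma 3.58.1) with quality weights, the Wald test of DESeq2 1.42.0, its size factors, other filters, a replicate block, an adjusted p under 0.1, and single mice left out. The depth of 9312788 to 41869997 counts sets the counting error.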

Additional observations from a re-analysis of the deposited data

How the results depend on the processing

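Over 20 alternative settings, 194 of 200 values of the 10 members kept their direction and their side of the threshold. Of the others, 6 (Bcl3 and Tnf, 3 each) newly passed it, and 0 changed sign. The setting of an adjusted p under 0.1 reads the main fit against another threshold, so no sign could change there. Tnf passed under that setting with its edgeR adjusted p of 0.0804 from the main fit. The number of risen members was 2 with the DESeq2 Wald test, limma-voom, an adjusted p under 0.1, and Control replicate 2 and DSS replicate 2 both left out (a setting chosen after seeing the data), and 1 to 2 with single mice left out; fallen members stayed at 0 (0 to 0). All changed genes numbered 919, against 1563 by DESeq2, 1641 at an adjusted p under 0.1 and 538 to 1379 with single mice left out. Risen ligand genes were 1 with no filter, with the replicate block and with both replicates 2 left out, and 1 to 2 with single mice left out. Risen receptor genes were 1 with the replicate block and 1 to 4 with single mice left out. Risen adaptor and kinase genes were 2 with DESeq2 size factors, the DESeq2 Wald test, limma-voom, the CPM filter, an adjusted p under 0.1 and both replicates 2 left out, and 1 to 3 with single mice left out. Risen further inhibitors were 1 to 2, and risen targets 6 to 12, with single mice left out. The cause of these shifts was not tested, apart from the threshold of 0.1. Clec4e had no value under the CPM filter. Titles give both groups the replicate numbers 1 to 6. Same-numbered mice did not deviate together over all genes (correlations of -0.189 to 0.154, 1 of 6 pairs over 0.1). The main fit did not treat them as pairs, and this check cannot show whether they shared a step of handling. With the replicate block Nfkbiz had a log2 fold change of 0.63 (adjusted p = 0.0139), 1 member rose and all changed genes numbered 708. Tnf had 7 to 69 counts per library.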

Other observations

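Rela, the gene of the main activating subunit and no member of the set described above, lay between 33.3 and 37.9 CPM in controls and between 32.6 and 38.5 in DSS mice. Its log2 fold change was -0.05 ± 0.06 SE (95% interval -0.18 to 0.08, edgeR adjusted p = 0.744). Ikbkg, the gene of the regulatory subunit of the IkB kinase complex, measured 34.2 to 38.4 CPM in controls and 29.4 to 33.4 CPM in DSS mice. Its log2 fold change, -0.18 ± 0.05 SE, did not pass the test (edgeR adjusted p = 0.0676). Map3k14, the kinase gene at the head of the non-canonical branch, averaged 16.8 ± 1.02 CPM in DSS mice against 14.2 ± 1.14 (SD, n = 6) in controls, with an edgeR adjusted p of 0.0533. These 3 genes were named after their values were seen.

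Ptgs2 and Selp, an enzyme gene of prostaglandin synthesis and the P-selectin gene of venular endothelium, stood close to the threshold in the same direction. Ptgs2 went from 7.52 ± 2.26 to 14.6 ± 6.81 CPM (SD, n = 6; edgeR adjusted p = 0.0619) and Selp from 6.82 ± 2.10 to 12.4 ± 5.81 CPM (adjusted p = 0.0818). Sod2, a mitochondrial superoxide dismutase gene and textbook NF-kB target, measured 34.3 ± 2.82 and 33.4 ± 2.30 CPM, and edgeR put its log2 difference at -0.04 (adjusted p = 0.835). These genes too were named after their values were seen.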
